A study of Mus musculus with 9 samples.

Results

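Latent TGF-beta binding proteins, fibrillins, fibulins and elastin were followed as 10 genes chosen by symbol. They were the latent TGF-beta binding proteins Ltbp1, Ltbp2, Ltbp3 and Ltbp4, the fibrillins Fbn1 and Fbn2, the fibulins Fbln1, Fbln2 and Fbln5, and elastin (Eln). All probe-sets annotated with 1 of these symbols were taken, whatever their signal, which gave 20 of the 45101 probe-sets on the array and 9 of its 18194 named genes. Fbn1, the fibrillin that forms the bulk of adult microfibrils, was matched to no probe-set by symbol and was not analysed here.

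These proteins build and bind the same extracellular structure. Fibrillins polymerise into microfibrils, on which the elastin precursor tropoelastin is deposited with the help of fibulins, and lysyl oxidases then crosslink it into an elastic fibre. Latent TGF-beta binding proteins attach to the microfibrils and to fibronectin, and most of them hold TGF-beta there in a latent complex from which integrins and proteases release it. Fibroblasts secrete many of these proteins, and Tgif1 encodes a homeodomain protein known as a corepressor of TGF-beta/Smad transcription.

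The study set out to learn whether primary mouse embryonic fibroblasts (MEFs) that lack Tgif1 take on at an early passage the transcriptional profile that wild type MEFs reach later. The 9 arrays held RNA from 3 independent cultures each of Tgif1 null MEFs (genotype Tgif1 -/-) at passage 3 (null), wild type MEFs at passage 5 (P5) and wild type MEFs at passage 3 (P3). All were untreated cells of mixed C57BL/6J x 129Sv/J background from embryos of day 13.5, replated at a fixed density every 3 days. The null has no passage 5 array, MEFs are a mixed population of embryonic cells, and the sources used here do not say how many embryos each culture came from.

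Signals are log2 values made by the authors with GCRMA, so a difference of 1 is a doubling of the signal, and the lowest value on every array was 2.23. Array medians lay between 2.48 and 2.50, from 18127 to 18258 probe-sets per array were above 4, and replicate arrays correlated at 0.996 to 0.999 across probe-sets. Tgif1 itself measured 2.48, 3.21 and 2.50 in the null arrays, 10.06, 10.07 and 10.18 in P5 and 9.82, 9.95 and 9.72 in P3, so it was low in the null arrays alone, as the labels have it. Of 10 fibroblast markers, 10 had a mean signal above 4, as had 3 of 8 endothelial markers (Kdr, Emcn and Egfl7), while the endothelial markers Pecam1, Cdh5 and Tie1 were at 2.23. A gene is represented by its probe-set with the highest mean signal, and "rose" and "fell" are used only where limma's moderated test gave an adjusted p under 0.05 over all 45101 probe-sets. In RNA from whole cultures, a change in the number of cells that make a transcript cannot be told apart from a change in the amount per cell.

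Several of these matrix genes were higher in wild type MEFs at the later passage. In P5 relative to P3, 5 of the 9 measured genes rose (Ltbp1, Ltbp2, Ltbp3, Fbln2 and Fbln5) and 0 fell in limma's test, with 2 lower at an unadjusted p under 0.05 (Fbn2 and Fbln1). Over all 18194 genes, 6.13% rose and 7.11% fell, and among the 5632 genes with a mean signal of at least 8, where the 5 genes lie, 11.2% rose. The median difference was 0.51 over the 9 genes and 0.00 over all genes.

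In the null relative to P3, 1 of the 9 genes rose (Ltbp1), against 1.51% of all genes and 151 of the 5632 genes with a mean signal of at least 8. The count of 1 is thus no result about the 9 genes. Of the 9, 0 fell in limma's test and 1 was lower at an unadjusted p under 0.05 (Fbln1), where 1.07% of all genes fell. The median difference of the 9 genes was 0.00. Set against wild type P5, 4 of the 9 genes were lower in the null (Ltbp2, Ltbp3, Fbln2 and Fbln5), where 5.33% of all genes and 8.63% of the genes with a mean signal of at least 8 were lower. In the other direction 0 passed limma's test, where 6.08% of all genes were higher, and 2 were higher at an unadjusted p under 0.05 (Ltbp1 and Fbn2). The median difference was -0.41. Any 2 of the 3 comparisons share 3 arrays, so they are not independent of each other.

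**Figure D1:**
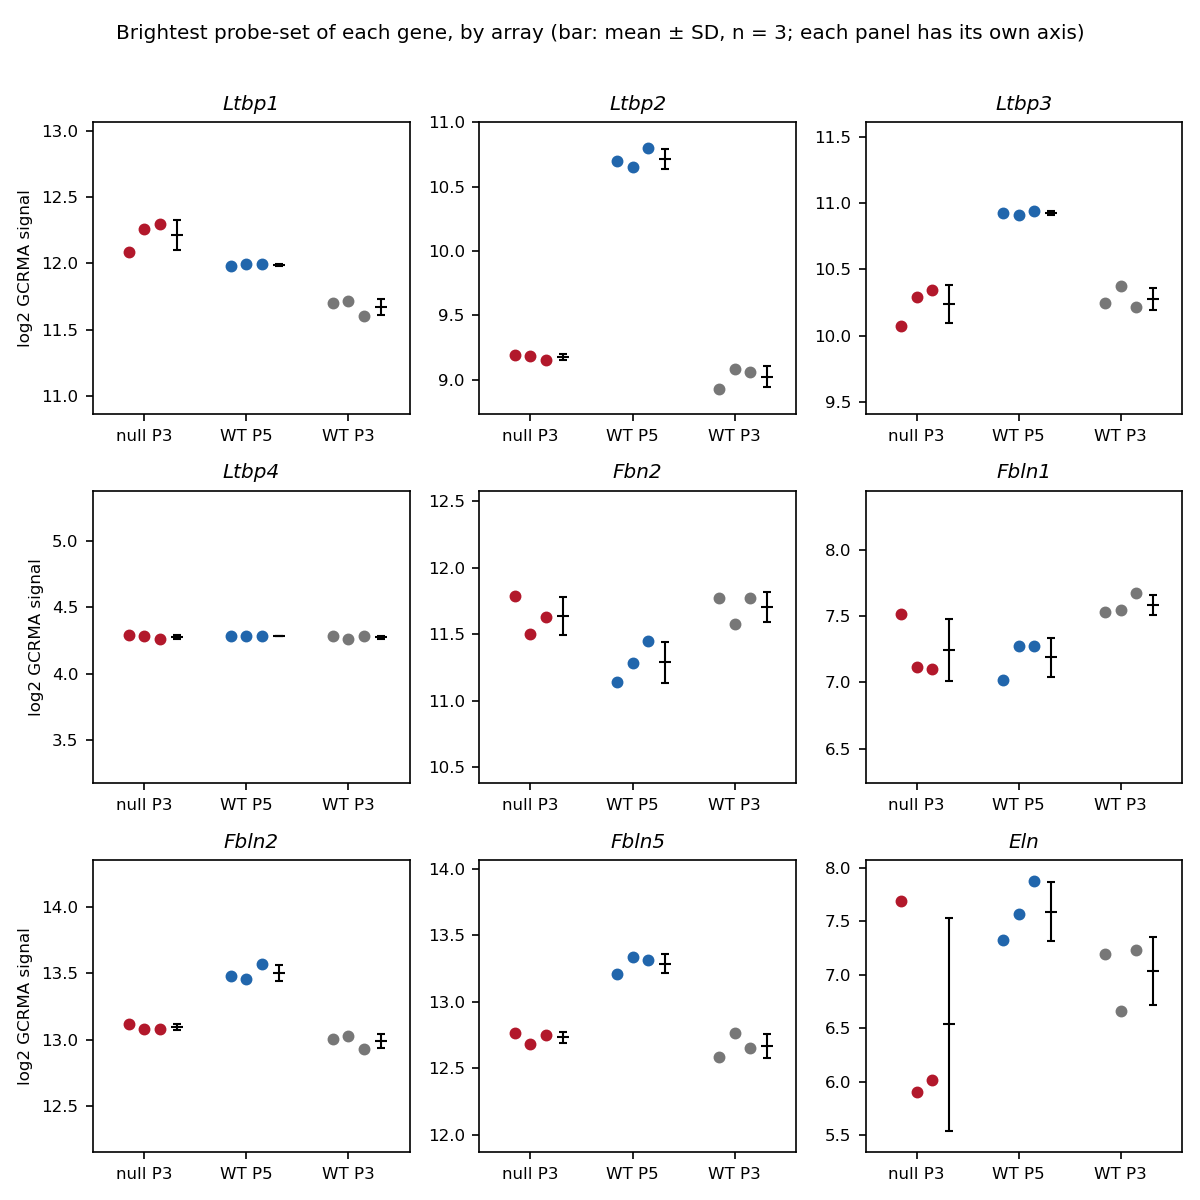
Log2 GCRMA signal (vertical axes, each panel with its own) of the brightest probe-set of 9 genes on every array of Tgif1 null P3, wild type P5 and wild type P3 MEFs; bars are mean ± SD (n = 3). The P5 points of Ltbp2, Ltbp3, Fbln2 and Fbln5 lie above all null and P3 points, the null points of Ltbp1 lie above all others, and for Eln null replicate 1 (7.68) stands apart from the other null arrays (5.90 and 6.02).

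The windows around the annotated starts of the 5 genes that rose with passage are printed here to show which short factor motifs they hold. Windows run from 250 bases before to 50 bases after the start, from RefSeq on build GRCm38.p6, and 12 windows were found for 7 of the measured genes. Capitals mark matches, on either strand, to TGACAG (the Tgif site), CAGACA (a Smad-binding element), TGAGTCA (an AP-1 site) or GGGCGG (a GC box). Ltbp1 and Fbln5 have 2 annotated starts each, of which the first is the more upstream.

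Ltbp1, first start, chr17:75005279-75005578, plus strand: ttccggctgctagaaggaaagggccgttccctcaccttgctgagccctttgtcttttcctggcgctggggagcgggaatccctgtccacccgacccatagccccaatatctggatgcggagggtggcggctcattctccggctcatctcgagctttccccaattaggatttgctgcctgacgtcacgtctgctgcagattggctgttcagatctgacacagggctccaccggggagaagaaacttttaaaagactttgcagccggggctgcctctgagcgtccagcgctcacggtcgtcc
Ltbp1, second start, chr17:75178531-75178830, plus strand: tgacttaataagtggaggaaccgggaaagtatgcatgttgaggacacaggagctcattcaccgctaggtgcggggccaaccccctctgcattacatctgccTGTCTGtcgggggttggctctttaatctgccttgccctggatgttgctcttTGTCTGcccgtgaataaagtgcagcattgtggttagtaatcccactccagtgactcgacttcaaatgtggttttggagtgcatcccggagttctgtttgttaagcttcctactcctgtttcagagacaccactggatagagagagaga
Ltbp2, chr12:84876442-84876741, minus strand: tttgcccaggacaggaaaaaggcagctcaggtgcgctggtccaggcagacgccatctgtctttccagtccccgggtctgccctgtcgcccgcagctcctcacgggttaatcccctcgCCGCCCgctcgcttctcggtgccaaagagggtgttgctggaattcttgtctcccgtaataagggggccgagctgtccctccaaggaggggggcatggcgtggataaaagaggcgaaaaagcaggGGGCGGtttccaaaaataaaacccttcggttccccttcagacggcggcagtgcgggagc
Ltbp3, chr19:5740650-5740949, plus strand: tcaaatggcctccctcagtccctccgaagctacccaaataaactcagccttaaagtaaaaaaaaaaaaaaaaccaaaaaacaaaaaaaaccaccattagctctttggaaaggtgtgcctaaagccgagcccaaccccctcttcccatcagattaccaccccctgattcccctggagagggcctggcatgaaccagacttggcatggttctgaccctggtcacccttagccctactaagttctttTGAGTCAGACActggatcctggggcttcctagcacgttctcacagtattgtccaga
Fbln2, chr6:91212514-91212813, plus strand: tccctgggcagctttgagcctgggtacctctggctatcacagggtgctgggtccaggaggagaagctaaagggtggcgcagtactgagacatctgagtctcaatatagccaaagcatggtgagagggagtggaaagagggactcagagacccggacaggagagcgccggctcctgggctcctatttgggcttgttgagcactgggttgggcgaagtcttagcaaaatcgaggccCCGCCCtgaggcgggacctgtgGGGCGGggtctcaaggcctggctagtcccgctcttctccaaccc
Fbln5, first start, chr12:101819070-101819369, minus strand: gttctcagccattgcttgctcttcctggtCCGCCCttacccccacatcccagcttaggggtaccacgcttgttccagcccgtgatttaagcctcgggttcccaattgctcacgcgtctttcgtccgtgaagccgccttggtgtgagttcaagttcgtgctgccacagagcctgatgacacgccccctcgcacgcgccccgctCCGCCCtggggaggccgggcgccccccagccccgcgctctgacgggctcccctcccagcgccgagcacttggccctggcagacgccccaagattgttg
Fbln5, second start, chr12:101818435-101818734, minus strand: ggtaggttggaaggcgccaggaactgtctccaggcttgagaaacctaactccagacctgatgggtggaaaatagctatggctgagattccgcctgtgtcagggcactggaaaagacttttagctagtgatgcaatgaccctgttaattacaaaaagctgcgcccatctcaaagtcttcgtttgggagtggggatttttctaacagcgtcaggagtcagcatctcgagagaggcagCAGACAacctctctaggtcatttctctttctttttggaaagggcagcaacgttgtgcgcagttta

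In these windows the Ltbp1 start with no match stands beside one with 2 Smad elements on the opposite strand, 149 and 98 bases before the start. Ltbp3 holds an AP-1 site that overlaps a Smad element by 2 bases, and the pair spans its start. Ltbp2, Fbln2 and the first start of Fbln5 each hold 2 GC boxes, the second start of Fbln5 holds a Smad element 15 bases before it, and none of the 7 printed windows holds the Tgif site. Over all 12 windows the Tgif site was in 1 (of Ltbp4) and the AP-1 site in 1. The Smad element was in 5 and the GC box in 7. The windows of Fbln1 overlap and hold the same Smad element, and 2 windows of Ltbp4 overlap and share GC boxes. The counts of 5 and 7 are thus not of independent windows. By gene, the Smad element was in 4 of 7 and the GC box in 5 of 7. Among 32851 mouse windows of the same length, 19.2% held the Tgif site, 21.0% the Smad element, 5.2% the AP-1 site and 35.7% the GC box. These shares are of single windows, while a gene was counted if any of its windows matched. No share by gene was computed, so the counts by gene have no background to be set against. A match is a run of letters and not a measured binding site, and the probe-sets do not tell which start a transcript came from.

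Ltbp2 showed the largest passage difference of the 9 genes. It binds fibrillin microfibrils and fibulin-5, and unlike its relatives does not carry latent TGF-beta. Its signal was 9.19, 9.19 and 9.15 in the null, 10.70, 10.65 and 10.80 in P5, and 8.93, 9.08 and 9.06 in P3. All P5 arrays lay far above all null and P3 arrays, which themselves did not overlap. Ltbp2 rose by 1.70 in P5 relative to P3 (SE 0.05, 3.24-fold, limma adjusted p = 9.68e-05) and was lower in the null than in P5 by 2.91-fold (log2 difference -1.54, SE 0.05, limma adjusted p = 0.000102). The null minus P3 difference was 0.15 (95% interval 0.03 to 0.28, limma adjusted p = 0.344).

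Ltbp3 binds latent TGF-beta and is needed for its secretion in many cells. Its brightest probe-set measured 10.08, 10.29 and 10.35 in the null, 10.93, 10.91 and 10.94 in P5, and 10.24, 10.37 and 10.22 in P3. The P5 arrays lay above all others, and the null and P3 arrays overlapped. Ltbp3 rose by 0.65 in P5 relative to P3 (SE 0.08, 1.56-fold, limma adjusted p = 0.00494) and was 1.61-fold lower in the null than in P5 (limma adjusted p = 0.00447). In the null relative to P3 the difference was -0.04 (95% interval -0.22 to 0.14). A second probe-set of Ltbp3, at 9.58, 9.54 and 9.77 in P5 and 8.70, 8.85 and 8.84 in P3, also rose, by 0.83 (SE 0.08, limma adjusted p = 0.0027). At this probe-set the null arrays measured 9.02, 8.83 and 8.86, lower than P5 by 0.73 on the log2 scale (limma adjusted p = 0.00465). The dim remaining pair of Ltbp3 probe-sets, with mean signals of 4.31 and 3.84, gave P5 minus P3 differences of -0.20 (SE 0.36) and 0.06, both with an adjusted p of 1 in limma.

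Ltbp1, which ties latent TGF-beta to fibronectin and microfibrils, was the 1 gene of the 9 that rose in the Tgif1 null relative to P3. Its signal was 12.09, 12.26 and 12.30 in the null, 11.98, 11.99 and 11.99 in P5, and 11.70, 11.71 and 11.60 in P3. The groups did not overlap, with the null highest and P3 lowest. Relative to P3, Ltbp1 rose by 0.54 in the null (SE 0.06, 95% interval 0.40 to 0.68, 1.45-fold, limma adjusted p = 0.0145). In P5 relative to P3 it rose by 0.32 (SE 0.06, 1.25-fold, limma adjusted p = 0.023). The null minus P5 difference was 0.22 (95% interval 0.08 to 0.36, limma adjusted p = 0.0838).

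Both Ltbp1 calls were near the threshold. The difference between the null and P3 missed it without null replicate 2 (limma adjusted p = 0.0541) or without P3 replicate 1 (limma adjusted p = 0.0559). That between P5 and P3 missed it without any 1 of the P5 arrays (limma adjusted p = 0.0782, 0.0844 and 0.0716) and without P3 replicate 1 (limma adjusted p = 0.07) or 3 (limma adjusted p = 0.0763). Without null replicate 1, the null was higher than P5 by 0.29 (limma adjusted p = 0.015). A second, dimmer probe-set of Ltbp1 measured 6.28, 6.13 and 6.63 in the null, 6.44, 6.61 and 6.92 in P5, and 6.03, 6.46 and 5.99 in P3, and no comparison passed (null minus P3 0.19, limma adjusted p = 0.899). The third lay between 5.01 and 5.26 and gave the same value of 5.11 on 7 of the 9 arrays.

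Ltbp4, which binds fibulin-5 and takes part in elastin assembly, has 1 probe-set. It lay between 4.26 and 4.29 on all 9 arrays, a range of 0.03 at a signal close to background, so the arrays gave no measure of a difference for this gene.

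Fibulin-5 and fibulin-2 both rose with passage. Fibulin-5 binds tropoelastin, integrins and lysyl oxidase-like 1, and mice without it have disordered elastic fibres. Fbln5 measured 12.76, 12.68 and 12.75 in the null, 13.21, 13.34 and 13.31 in P5, and 12.58, 12.76 and 12.65 in P3. The P5 arrays lay above all others, and the null and P3 arrays overlapped. Fbln5 rose by 0.62 in P5 relative to P3 (SE 0.06, 1.54-fold, limma adjusted p = 0.00197) and was 1.47-fold lower in the null than in P5 (limma adjusted p = 0.00318). The null minus P3 difference was 0.07 (95% interval -0.07 to 0.20). A dim second probe-set of Fbln5 gave the same value of 4.08 on 6 of the 9 arrays (P5 minus P3 0.20, SE 0.08, limma adjusted p = 0.209).

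Fibulin-2 is found in basement membranes and where microfibrils meet elastin. Fbln2 measured 13.12, 13.08 and 13.08 in the null, 13.48, 13.46 and 13.57 in P5, and 13.01, 13.03 and 12.93 in P3. None of the 3 groups overlapped, and the gap between the null and P3 was small. Fbln2 rose by 0.51 in P5 relative to P3 (SE 0.04, 1.43-fold, limma adjusted p = 0.00106) and was 1.33-fold lower in the null than in P5 (limma adjusted p = 0.00248). The null minus P3 difference was 0.10 (95% interval 0.01 to 0.20, limma adjusted p = 0.398). A dim second probe-set of Fbln2 measured 2.55 on each null array, 2.62, 3.02 and 3.73 in P5, and 2.55, 2.55 and 2.38 in P3 (P5 minus P3 0.63, SE 0.26, limma adjusted p = 0.266).

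Fibulin-1, which binds fibronectin and lies within the elastic fibre, did not pass in any comparison. Fbln1 measured 7.52, 7.12 and 7.10 in the null, 7.02, 7.27 and 7.27 in P5, and 7.53, 7.55 and 7.67 in P3. All P5 arrays and all null arrays lay below all P3 arrays, null replicate 1 by the least. The differences from P3 were -0.34 in the null (95% interval -0.66 to -0.02, limma adjusted p = 0.45) and -0.40 in P5 (95% interval -0.72 to -0.07, limma adjusted p = 0.159). The second of these passed when null replicate 1 was left out of the fit (limma adjusted p = 0.0492). A second probe-set of Fbln1 gave -0.36 and -0.43 for the same comparisons, with null replicate 1 (7.47) above the other null arrays (6.59 and 6.61). The third was flat at 2.27.

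Fibrillin-2, the fibrillin most used in the embryo, had a lower signal in P5 than in P3 that missed the threshold. Fbn2 measured 11.78, 11.50 and 11.63 in the null, 11.14, 11.28 and 11.44 in P5, and 11.77, 11.57 and 11.77 in P3. The P5 arrays lay below all others, and the null and P3 arrays overlapped. The difference was -0.42 in P5 relative to P3 (95% interval -0.68 to -0.15, limma adjusted p = 0.0745), -0.07 in the null relative to P3 (95% interval -0.33 to 0.20) and 0.35 in the null relative to P5 (95% interval 0.09 to 0.61, limma adjusted p = 0.14). With the test restricted to the 18428 probe-sets above a signal of 4 on at least 3 arrays, the same difference between P5 and P3 passed (limma adjusted p = 0.0195). A second Fbn2 probe-set measured 11.26, 11.41 and 11.31 in P5 and 11.49, 11.53 and 11.29 in P3, which overlap (P5 minus P3 -0.11, SE 0.09, limma adjusted p = 0.652).

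Elastin had the widest intervals of the 9 genes. Eln measured 7.68, 5.90 and 6.02 in the null, 7.33, 7.57 and 7.87 in P5, and 7.20, 6.66 and 7.23 in P3. Null replicate 1 lay within the range of P5, and the other null arrays lay below every wild type array. No comparison passed: the differences were 0.56 in P5 relative to P3 (95% interval -0.64 to 1.76), -0.50 in the null relative to P3 (95% interval -1.69 to 0.70) and -1.06 in the null relative to P5 (95% interval -2.25 to 0.14, limma adjusted p = 0.364). Without null replicate 1, the null was lower than P5 by 1.63 on the log2 scale (limma adjusted p = 0.0229), and the difference from P3 was -1.07 (limma adjusted p = 0.135). A second Eln probe-set was flat at 2.24.

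**Figure D2:**
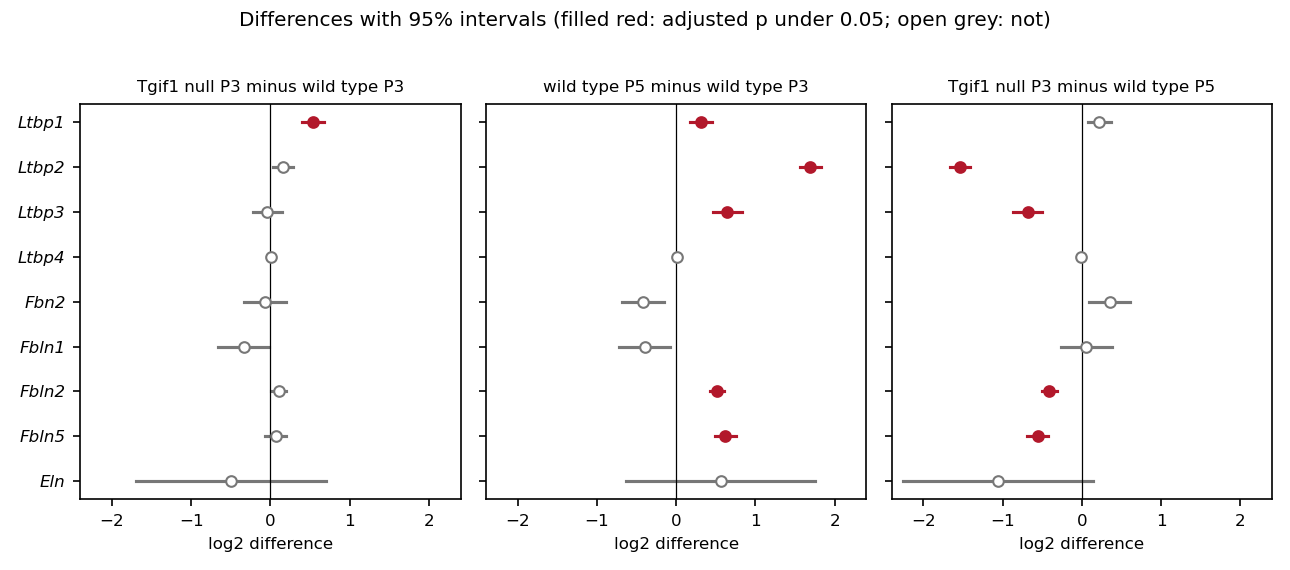
Log2 difference (horizontal axes) of 9 genes in 3 comparisons, with 95% intervals from limma; filled red points passed an adjusted p of 0.05 and open grey points did not. In the middle panel Ltbp1, Ltbp2, Ltbp3, Fbln2 and Fbln5 lie to the right of 0 with intervals clear of it. Fbn2 and Fbln1 lie to the left of 0 in that panel, also with intervals clear of it, but did not pass. The Eln intervals are the widest.

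Calls came from the probe-sets with a high signal. Of the 20 probe-sets, 8 had a mean signal under 5.2 and none of these passed in any comparison, 6 gave the same value within 0.001 on at least 5 arrays, and 3 varied by under 0.1 over the 9 arrays. Ltbp3 was the 1 gene with more than 1 probe-set past the test. For Ltbp2 there is 1 probe-set, so its passage difference has no second measure on the array.

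**Figure D3:**
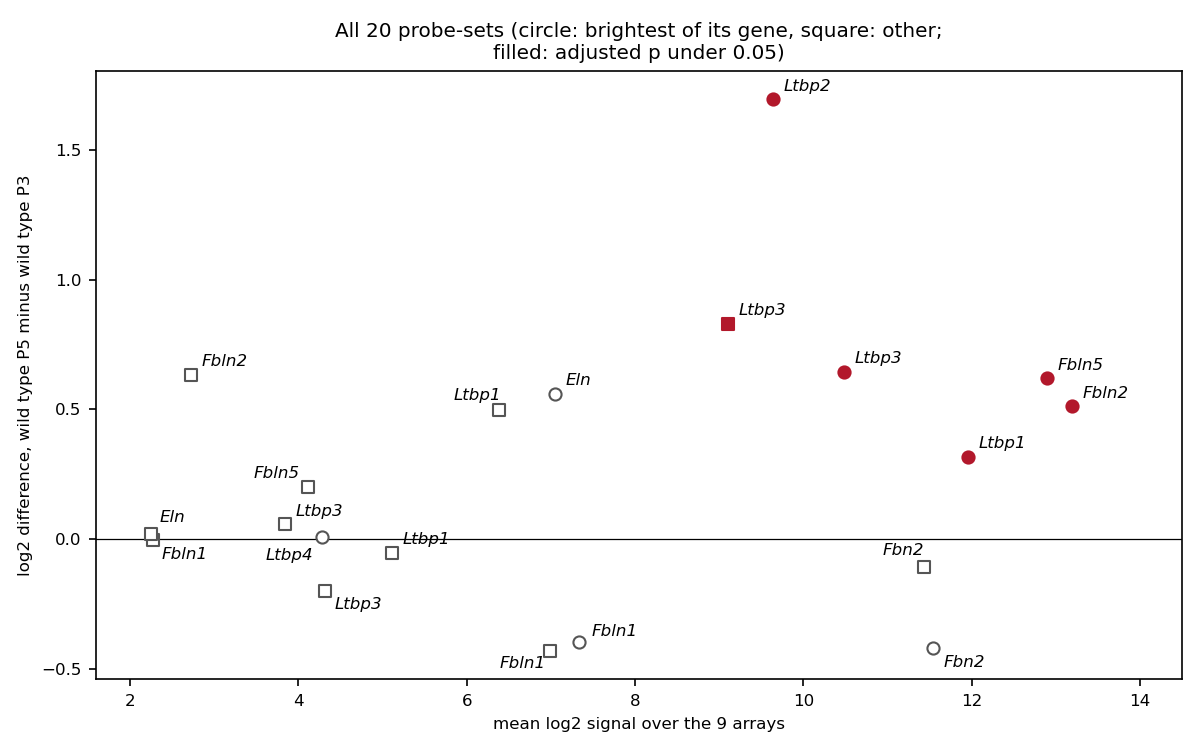
Mean log2 signal over the 9 arrays (horizontal axis) against the log2 difference of wild type P5 and P3 (vertical axis) for all 20 probe-sets; circles are the brightest of each gene, squares the others, and filled symbols passed the test. Filled symbols lie to the right of a signal of 9, and those under 5.2 lie between -0.20 and 0.20 apart from 1 of Fbln2 (0.63).

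Genes whose pattern over the arrays was most like that of Ltbp2 were sought by the root mean square difference between log2 profiles centred on their means, over 9 arrays and 18193 other genes. Ltbp2 was the 1 member whose group means spanned at least 1 and whose F test passed after adjustment. The means of Eln also spanned over 1, but its F test did not pass. The closest were Smoc1, a secreted calcium-binding matrix protein (0.105), Ypel2 (0.107) and Nr1d1, a nuclear receptor of the circadian clock (0.107). Smoc1 measured 6.33, 6.05 and 6.18 in the null, 7.75, 7.66 and 8.01 in P5, and 6.01, 5.96 and 6.02 in P3, so it too was high in P5 alone.

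Genes that work with these proteins were counted in 7 lists, of which 64 of 69 genes were measured. In P5 relative to P3, 21 of the 64 rose and 0 fell in limma's test (28 and 3 at an unadjusted p under 0.05), with a median difference of 0.19. In the null relative to P3, 5 rose and 0 fell (15 and 2 at an unadjusted p under 0.05), with a median of 0.10, and relative to P5, 3 were higher in the null and 12 were lower, with a median of 0.00. Of all 18194 genes, 6.13% rose and 7.11% fell in P5, 1.51% rose and 1.07% fell in the null relative to P3, and 6.08% were higher and 5.33% lower in the null than in P5. Among genes with a mean signal of at least 8, 11.2% rose in P5 and 8.63% were lower in the null than in P5. The counts of each list below are to be read beside these shares. The median of all genes was 0.00 in each comparison.

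Of 6 measured genes for elastin crosslinking, the enzyme genes Lox, Loxl1, Loxl3, Loxl4 and Tgm2 and the copper transporter gene Atp7a, all but Loxl1 rose in P5, with a list median of 0.77. Loxl2, also on the list, had no probe-set with its symbol alone and was not analysed here. The paper reports from qRT-PCR that Loxl2 went up both with passage and without Tgif1. Loxl3, a lysyl oxidase-like enzyme, measured 11.02, 10.80 and 10.88 in the null, 11.67, 11.70 and 11.80 in P5, and 10.79, 10.70 and 10.89 in P3. It thus followed the order of Ltbp2, rising by 0.93 with passage (SE 0.07, limma adjusted p = 0.00123) and lying lower in the null than in P5 by 0.82 on the log2 scale (limma adjusted p = 0.00215). Loxl4 rose in P5 by 0.61 (limma adjusted p = 0.00759). Tgm2, a transglutaminase that crosslinks matrix proteins, differed from this, since it rose both in the null (1.45) and in P5 (1.40) and its null minus P5 difference was 0.05. Atp7a, which supplies copper to lysyl oxidases, rose by 0.35 in the null (limma adjusted p = 0.0416) and by 0.31 in P5, but another of its probe-sets passed in the opposite direction between the null and P3.

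Of 8 microfibril-binding Adamts and Adamtsl genes, 4 rose in P5, 0 passed limma's test in the null relative to P3 (2 at an unadjusted p under 0.05, both higher), and 3 were lower in the null than in P5. Adamtsl4, whose product binds fibrillin microfibrils, measured 5.72, 5.75 and 5.25 in the null, 7.00, 7.41 and 7.42 in P5, and 5.65, 5.72 and 5.75 in P3. Only P5 stood apart, with a rise of 1.57 over P3 (SE 0.17, limma adjusted p = 0.00392). Adamtsl1 rose in P5 by 1.26 and Adamtsl3 by 0.92. Thsd4, the fourth, was at 2.23 on every null and P3 array and at 3.05, 3.46 and 2.76 in P5, so its difference is from the floor of the arrays.

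Of 13 elastic fibre assembly genes, 3 rose in P5 (Mfap5, Emilin2 and Bgn), 0 passed limma's test in the null relative to P3 (1 higher and 1 lower at an unadjusted p under 0.05), and 3 were lower in the null than in P5. Mfap5, a glycoprotein that binds fibrillins, measured 9.42, 9.18 and 9.13 in the null, 9.92, 9.90 and 9.93 in P5, and 8.65, 8.32 and 8.72 in P3. The null arrays thus lay between those of P5 and P3, and Mfap5 rose by 1.35 in P5 relative to P3 (SE 0.12, limma adjusted p = 0.00192) and was lower in the null than in P5 by 0.67 (limma adjusted p = 0.0236). Its null minus P3 difference was 0.68 (limma adjusted p = 0.0581). Emilin2, a glycoprotein at the elastin-microfibril interface, rose in P5 by 0.74 (limma adjusted p = 0.0188), and its null minus P5 difference was -1.31 (limma adjusted p = 0.00295). Its signal was 6.75 on each null array, 8.19, 8.08 and 7.91 in P5, and 7.46, 7.05 and 7.46 in P3. The null values of Emilin2 were identical, so they give no measure of spread within the null.

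Among 10 genes for TGF-beta ligands, their latency and their receptors, 3 rose and 0 fell in P5 relative to P3. At an unadjusted p under 0.05, 4 were higher in P5 and 2 were lower (Furin and Tgfbr1). In the null relative to P3, 0 passed limma's test (2 higher and 1 lower at an unadjusted p under 0.05). None of the receptor genes Tgfbr1, Tgfbr2, Tgfbr3 and Eng was among the 3 that rose in P5. The ligand Tgfb2 rose by 0.72 (limma adjusted p = 0.0125), Tgfb3 by 0.72 (limma adjusted p = 0.0417), and fibronectin (Fn1), to which latent complexes attach, by 0.36 (limma adjusted p = 0.00645). Of 12 activators of latent TGF-beta, 3 rose in P5, 1 rose in the null relative to P3, and 2 were higher in the null than in P5. Of all genes, 6.13%, 1.51% and 6.08% did so. Among the 5632 genes with a mean signal of at least 8, 678 were higher in the null than in P5. The counts of 1 and 2 are thus no result about the list. Tll1, a tolloid-like metalloprotease, rose by 0.81 in the null (limma adjusted p = 0.0223) and by 0.95 in P5 (limma adjusted p = 0.00374). The integrin subunit gene Itgb3 and the tolloid protease gene Bmp1 were higher in the null than in P5, by 1.41 (limma adjusted p = 0.0315) and 0.85 (limma adjusted p = 0.038).

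Of 9 elastin-degrading proteases, 1 rose in P5 and 1 in the null relative to P3, against 6.13% and 1.51% of all genes, so these counts of 1 are no result about the list. Ctsk, an elastolytic cathepsin, rose in P5 by 0.74 (limma adjusted p = 0.0157). Ctss, another, measured 6.57, 5.87 and 6.31 in the null, 4.22, 4.39 and 4.13 in P5, and 4.39, 4.32 and 4.37 in P3, and was thus high in the null alone. Of 6 elastic fibre receptor genes, 2 rose in P5, 1 rose in the null relative to P3, and 2 were lower in the null than in P5. Itga8, an integrin subunit, measured 8.70, 8.53 and 8.70 in the null, 9.91, 9.97 and 9.90 in P5, and 8.36, 8.32 and 8.32 in P3, and rose by 0.31 in the null (limma adjusted p = 0.0411) and by 1.59 in P5 (SE 0.05, limma adjusted p = 9.68e-05), both relative to P3. Glb1 encodes lysosomal beta-galactosidase and, in a spliced form, the elastin-binding protein, and was lower in the null than in P5 by 0.66 on the log2 scale (limma adjusted p = 0.00348). Glb1 rose in P5 relative to P3 by 0.50 (limma adjusted p = 0.00809), and its null minus P3 difference of -0.16 did not pass (limma adjusted p = 0.499).

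**Figure D4:**
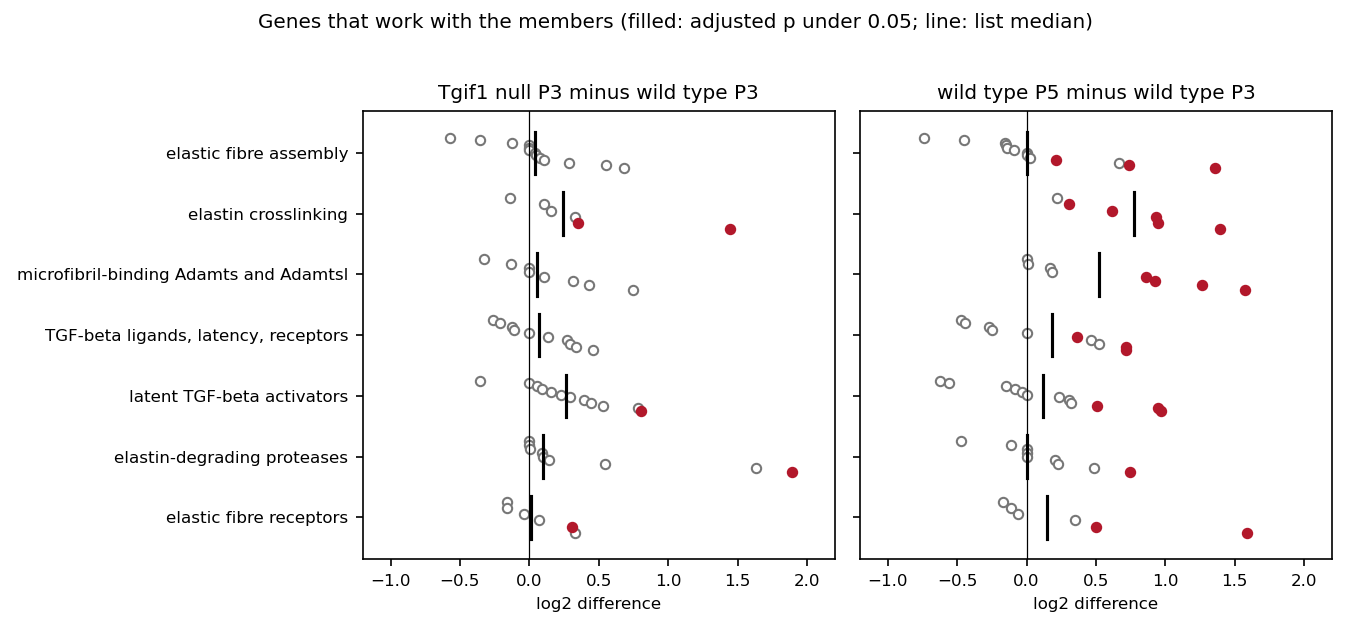
Log2 difference (horizontal axes) of each measured gene in 7 lists of genes that work with latent TGF-beta binding and elastic fibre proteins, in the Tgif1 null relative to P3 (left) and in P5 relative to P3 (right); filled points passed the test and black lines are list medians. The lines of the elastin crosslinking (0.77) and Adamts and Adamtsl lists (0.52) lie farthest to the right of 0 in the right panel.

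Other cell type and growth markers moved between the same groups as the members. Of all genes, 6.13% rose and 7.11% fell in P5 relative to P3, 1.51% rose and 1.07% fell in the null relative to P3, and 5.33% were lower in the null than in P5. All 9 measured proliferation markers fell in P5 relative to P3, with a summed log2 signal of 14.34 to 14.44 in the null, 13.94 to 14.04 in P5 and 14.70 to 14.75 in P3. In the null relative to P3, 3 of the 9 fell (Bub1b, Mcm5 and Aurkb) and 8 were lower at an unadjusted p under 0.05 in limma's test. Against P5, 6 of them were higher in the null, as were 6.08% of all genes. Of 10 fibroblast markers, 3 rose and 0 fell in P5, and their summed signal was 16.64 to 16.80 in the null, 16.95 to 17.01 in P5 and 16.71 on each P3 array. In the null relative to P3, 1 of the 10 fell (Dcn, by 0.73) and 0 rose, and 4 were lower in the null than in P5. Smooth muscle markers, which also mark cells that make elastin, rose in 3 of 8 cases in P5, with sums of 15.94 to 16.01 in the null, 16.02 to 16.11 in P5 and 15.81 to 15.84 in P3. In the null relative to P3, 1 of the 8 rose (Des, by 1.09) and 7 were higher at an unadjusted p under 0.05 in limma's test. Skeletal muscle markers, 3 of 9 above a signal of 4 and Myod1 at 2.23, summed to 11.51 to 11.89 in the null, 12.05 to 12.33 in P5 and 10.72 to 10.89 in P3, a sum carried by Acta1. In the null relative to P3, 4 of them rose and 0 fell, while in P5 relative to P3 Acta1 rose by 1.61, Actc1 fell by 3.93 and Myh3 fell by 2.58, with a list median of -0.05. Cartilage markers, 3 of 8 above a signal of 4, summed to 11.51 to 12.03 in the null, 9.51 to 10.01 in P5 and 10.48 to 10.86 in P3, a sum carried by Col2a1. In P5 relative to P3, 2 of them fell (Col2a1 and Acan) and 1 rose (Comp, by 1.80, at a mean signal of 3.55). Macrophage markers, 5 of 10 above 4 and Aif1 at 2.23, summed to 9.48 to 10.11 in the null, 8.42 to 8.67 in P5 and 8.91 to 9.01 in P3. Mesothelial and epithelial markers, 3 of 9 above 4, summed to 10.41 to 10.70 in the null, 9.95 to 10.16 in P5 and 10.64 to 10.76 in P3, and Krt18 fell by 2.66 in P5 relative to P3 (limma adjusted p = 0.000411). Endothelial markers summed to 7.11 to 7.59 in the null, 6.96 to 7.10 in P5 and 7.32 to 7.52 in P3, and Emcn was higher in the null than in P5 by 1.61 (limma adjusted p = 0.0254). The part of these shifts in the differences of Ltbp1, Ltbp2, Ltbp3, Fbln2 and Fbln5 was not tested.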

How the data were processed

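The authors hybridized biotinylated cRNA to Affymetrix expression arrays and deposited a log2 signal for every probe-set on each array. GCRMA, a method that subtracts background according to probe sequence, equalises array distributions by quantiles and summarises the probes of a set, produced these signals, and its version is not given in the sources used here. No further normalization was applied to the deposited log2 signals. Probe-sets were named through platform annotation, and a check by gene number changed 0 symbols. Of 45101 probe-sets, 34958 had 1 symbol, 932 several and 9211 none, and only the first were used. In R 4.3.3, limma 3.58.1 (lmFit, eBayes at its defaults, prior df 0.345, residual df 6) estimated a mean per group over the 9 arrays, with Benjamini-Hochberg adjustment over all probe-sets. With 3 arrays per group, precision is limited by their number. An exact permutation test of 3 against 3 cannot go below 0.1, so single genes were tested in the fit across all probe-sets. The fits were tested on simulated data. Alternatives were the study's selection (F p under 0.0001 and a log2 difference of at least 0.5), a prior with trend and robust estimation, a filter on log2 signals above 4 on at least 3 arrays, quantile normalization, median centring, a replicate block, 2 groups fitted alone, the mean of a gene's probe-sets, and leaving out each array. Up to 4 genes per pathway list were named by smallest p among those that passed. The members, lists and rules were chosen with earlier results of these data known.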

Additional observations from a re-analysis of the deposited data

How the results depend on the processing

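Ltbp2 and Fbln5 kept their calls, in P5 relative to P3 and in the null relative to P5, under all 17 alternatives. Fbln2 kept its own in 17 of 17 and 15 of 17, and Ltbp3 in 15 of 17 for both. Ltbp1 kept its call in 10 of 17 between the null and P3 (adjusted p 0.00444 to 0.239) and in 8 of 17 between P5 and P3. The count of genes called between the null and P3 was 0 in place of 1 under the study's selection, the prior with trend and robust estimation, the replicate block, 2 groups fitted alone and the mean of all probe-sets, and 0 to 1 when single arrays were left out. Between P5 and P3 it was 3 in place of 5 under the study's selection and the mean of all probe-sets, and 4 to 6 when single arrays were left out. Between the null and P5 it was 2 in place of 4 under those same settings, and 4 to 6 when single arrays were left out. Under the study's selection, Ltbp1 and Ltbp3 missed the F p of 0.0001 (0.000197 and 0.00012), and the Fbln2 difference between the null and P5 (-0.41) was smaller than 0.5. Signs turned only for differences that had not passed. With the mean of all probe-sets, these were Ltbp3 (0.0231) and Fbn2 (0.0169) between the null and P3 and Ltbp1 (-0.0397) between the null and P5. With single arrays left out, Ltbp3 ranged from -0.0933 to 0.0411 and Fbn2 from -0.14 to 0.00227 between the null and P3, and Fbln1 from -0.0799 to 0.128 between the null and P5. The cause of these turns was not tested. Replicate numbers did not pair the arrays: 4 of 9 same-number correlations of deviations were above 0.1 (range -0.42 to 0.31). With the replicate block, 0, 4 and 4 genes were called in the null to P3, P5 to P3 and null to P5 comparisons. The filter on low values added Fbn2 and Fbln1 to the P5 to P3 calls, both lower in P5, and Fbn2 to the null to P5 calls. Signals within about 1 of the lowest value cannot show a decrease.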

Other observations

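Null replicate 1 stood above the other null arrays at some matrix genes and below them at others, all picked out after their values were seen. Mfap4, a microfibril-associated protein, measured 7.66 there, against 5.92 and 5.96 on the other null arrays, 5.47 to 5.97 in P5 and 5.96 on each P3 array. Mfap2, which binds fibrillins, measured 9.42 there, against 8.64 and 8.48 on the other null arrays, 8.66, 8.67 and 8.95 in P5 and 9.40, 8.88 and 9.34 in P3. Eln (7.68 against 5.90 and 6.02) and the upper pair of Fbln1 probe-sets also had null replicate 1 as the highest null array. In P3, replicate 2 was the lowest array for Mfap2 and Eln. Ltbp2, Fbln2 and Fbln5 did not share this spread, with SDs over the null arrays of 0.02, 0.02 and 0.04. Null replicate 1 was the lowest null array for Ltbp1 (12.09 against 12.26 and 12.30) and Efemp1 (11.48 against 12.42 and 12.30). It was also lowest at the brightest Ltbp3 probe-set (10.08 against 10.29 and 10.35), but highest at the second (9.02 against 8.83 and 8.86). Across probe-sets it correlated with null replicates 2 and 3 at 0.997 and 0.996, and these with each other at 0.999.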
